A study of Drosophila melanogaster with 9 samples.

Results

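The 9 genes lt, nvd, uex, cta, Parp, Dbp80, Nipped-A, Nipped-B and AGO3 lie in or next to the heterochromatin that flanks the centromeres of Drosophila melanogaster, and each carries at least 1 intron of several kilobases. They were taken by name from the deposited gene table, 9 of 8335 genes, together with all of their listed introns, 115 of 60779. The cells were OSCs, a cultured line of somatic cells of the fly ovary. They were grown at 27°C and transfected with an siRNA against tsu (siTsu), against Acn (siAcn) or, as the control, against GFP (siGFP). tsu encodes Y14, a core subunit of the exon junction complex (EJC), and Acn encodes Acinus, a subunit of the ASAP complex that associates with the EJC. PolyA-selected RNA of 2 biological replicates of each knockdown was sequenced, 6 libraries in all, and 3 further rRNA-depleted libraries were not analysed here.

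Pericentric heterochromatin is the compact, repeat-rich chromatin around centromeres. It silences most euchromatic genes placed next to it, yet holds genes of its own that are transcribed there, many with long introns filled with remnants of transposable elements. The EJC is left on an mRNA just upstream of each exon junction after splicing. A prominent example of its role in splicing in flies is rl, the MAP kinase gene. Transcripts of rl are spliced poorly when core EJC subunits are lost. The comparisons below ask how the transcripts and the introns of these 9 genes stood in cells with less tsu or less Acn.

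Levels are RPKM, reads per kilobase and per 1e6 reads (M) as the authors deposited them. The reads behind a library's scale were 15.9 and 11.5 M for siTsu, 18.7 and 13.4 M for siAcn and 28.8 and 30.4 M for siGFP, so the same RPKM rests on fewer reads in the knockdowns. The targeted genes followed the labels. tsu was at 9.77 and 9.16 RPKM in siTsu cells, against 128.4 and 111.6 RPKM in siGFP cells, and Acn was at 16.8 and 16.5 RPKM in siAcn cells, against 98.1 and 140.4 RPKM in siGFP cells. All 7 follicle and OSC markers examined were listed at 1 RPKM or more in siGFP cells. Their summed level was lower in siTsu cells (1016 and 710.6 RPKM) and in siAcn cells (1503 and 1106 RPKM) than in siGFP cells (1915 and 1572 RPKM). Of 5 hemocyte markers examined, 2 were listed. One was srp, a GATA factor of hemocytes and other tissues. It stood at 15.8 and 17.5 RPKM in siTsu cells and 12.8 and 14.8 RPKM in siAcn cells, against 8.6 and 8.63 RPKM in siGFP cells. The other, Hml, was at 0.0537 RPKM or less in every library. Of the 7 follicle and OSC markers, piwi was at 195.7 and 124.4 RPKM in siTsu cells and 317.1 and 249.7 RPKM in siAcn cells. In siGFP cells piwi was at 611.8 and 447.4 RPKM. The authors report that both knockdowns retained an intron of piwi and lowered its RNA, so the sum need not follow cell type alone. The rest of the 7 were also below both siGFP libraries in siTsu cells, but in siAcn cells only zfh1 was. The part of these shifts in the results below was not tested. In bulk RNA fewer cells of a type and less RNA per cell cannot be told apart.

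After tsu knockdown, the transcripts of 4 of the 9 genes fell, to between 0.41 and 0.58 times their mean in control cells, and none rose. The 4 were nvd, uex, lt and cta. Nipped-A, Nipped-B and Dbp80 averaged 0.77 to 0.79 times the control and Parp and AGO3 lay above it, all 5 without passing the test. Over the 7362 genes that averaged 1 RPKM or more, limma called 2.46% lower and 1.22% higher in siTsu than in siGFP cells at a Benjamini-Hochberg adjusted p under 0.05. The median log2 difference was -0.37 over the 9 genes and -0.09 over all genes tested.

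nvd (neverland) encodes an oxygenase that acts on cholesterol in the first step of ecdysteroid synthesis. It was at 9.56 and 8.81 RPKM in siTsu libraries, 16.7 and 14 RPKM in siAcn libraries and 23.8 and 20.7 RPKM in siGFP libraries. The 3 groups did not overlap, with siTsu lowest and siAcn between. nvd fell in siTsu cells by 1.19 on the log2(RPKM + 1) scale (standard error 0.15, adjusted p = 0.0185, limma). In siAcn cells the log2 difference was -0.51 (standard error 0.15), with an unadjusted p of 0.012 and an adjusted p of 0.42 from limma.

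uex (unextended) encodes a membrane protein related to the CNNM family of magnesium transporters. Its transcript was at 15.7 and 15 RPKM in siTsu libraries, against 29.1 and 30.3 RPKM in siAcn libraries and 32.5 and 32.9 RPKM in siGFP libraries. Both siTsu libraries stood well below the other 4, which lay close together. uex fell in siTsu cells by 1.04 on the log2(RPKM + 1) scale (standard error 0.12, adjusted p = 0.015, limma), the smallest adjusted p among the 9 genes.

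lt (light) encodes a subunit of the HOPS complex, which tethers vesicles to lysosomes and pigment granules, and is a classical gene that needs its heterochromatic surroundings for normal expression. It was at 24.0 and 24.5 RPKM in siTsu libraries, 45.9 and 46.6 RPKM in siAcn libraries and 44.0 and 39.8 RPKM in siGFP libraries. The siTsu libraries were again the low ones, and siAcn stood slightly above siGFP. lt fell in siTsu cells by 0.76 on the log2(RPKM + 1) scale (standard error 0.12, adjusted p = 0.0305, limma).

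cta (concertina) encodes a G protein alpha subunit that relays the Fog signal during gastrulation. Its level was 14.6 and 14.5 RPKM in siTsu libraries, 25.4 and 21.6 RPKM in siAcn libraries and 25.7 and 24.7 RPKM in siGFP libraries. The siTsu libraries agreed within 0.1 RPKM and lay below all others. cta fell in siTsu cells by 0.75 on the log2(RPKM + 1) scale (standard error 0.13, adjusted p = 0.0391, limma).

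Nipped-A and Nipped-B work on chromatin. Nipped-A encodes the fly Tra1 or TRRAP subunit of the SAGA and Tip60 histone acetyltransferase complexes, and Nipped-B the adherin that loads cohesin onto chromosomes. Nipped-A was at 27.2 and 24.2 RPKM in siTsu libraries, 33.6 and 36.6 RPKM in siAcn libraries and 30.9 and 34.6 RPKM in siGFP libraries, a log2 difference of -0.34 (standard error 0.13, adjusted p = 0.19, limma) for siTsu against siGFP. Nipped-B was at 52.8 and 57.1 RPKM in siTsu libraries, 79.2 and 92.5 RPKM in siAcn libraries and 66.7 and 76.3 RPKM in siGFP libraries, a log2 difference of -0.37 (standard error 0.14, adjusted p = 0.18, limma). For both genes the siTsu libraries lay below all others, but neither difference passed the test.

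Parp encodes poly(ADP-ribose) polymerase, an enzyme of DNA repair and chromatin loosening, and is the most abundant of the 9 transcripts in every library. It was at 200.3 and 185.7 RPKM in siTsu libraries, 257.0 and 263.5 RPKM in siAcn libraries and 138.7 and 166.3 RPKM in siGFP libraries. Both knockdowns stood above the control, siAcn further than siTsu. The log2 difference of Parp was 0.34 (standard error 0.15, adjusted p = 0.21, limma) in siTsu cells and 0.77 (standard error 0.15, unadjusted p = 0.0014, adjusted p = 0.23, limma) in siAcn cells.

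Dbp80 encodes a DEAD-box RNA helicase related to the mRNA export factor of the nuclear pore. It was at 39.4 and 67.4 RPKM in siTsu libraries, 93.2 and 174.9 RPKM in siAcn libraries and 54.1 and 82.7 RPKM in siGFP libraries. Replicate 2 was the higher one in each group, and the siTsu and siGFP libraries overlapped. The fit below left this replicate difference in the spread. Dbp80 was called in both comparisons only when the replicate number was added as a block. The log2 difference of Dbp80 was -0.37 (standard error 0.38, adjusted p = 0.59, limma) in siTsu cells and 0.92 (standard error 0.38, adjusted p = 0.65, limma) in siAcn cells.

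AGO3 encodes a PIWI-clade Argonaute that works with Aubergine in the piRNA amplification cycle of germ cells, and is the least abundant of the 9 transcripts. It was at 3.49 and 5.05 RPKM in siTsu libraries, 3.02 and 5.11 RPKM in siAcn libraries and 2.46 and 2.33 RPKM in siGFP libraries. All knockdown libraries stood above the control, with a wide gap between replicates. The log2 difference of AGO3 was 0.62 (standard error 0.27, adjusted p = 0.21, limma) in siTsu cells and 0.55 (standard error 0.27, adjusted p = 0.74, limma) in siAcn cells. Of 10 germline markers examined, 7 had values, and their summed level was 96.0 and 86.1 RPKM in siTsu, 126.8 and 106.3 RPKM in siAcn and 126.2 and 112.8 RPKM in siGFP libraries. Over all libraries krimp lay at 49.7 to 86.4 RPKM, vls at 28.1 to 32.1 RPKM and qin at 4.76 to 8.16 RPKM, and vas, aub, bam and bgcn at 1.41 RPKM or less. Of these low ones, vas was at 0.28 and 0.40 RPKM in siTsu cells and 1.41 and 1.16 RPKM in siAcn cells, against 0.92 and 1.2 RPKM in siGFP cells. By contrast aub was at 0.94 and 0.66 RPKM in siTsu cells and 1.02 and 0.90 RPKM in siAcn cells, against 0.44 and 0.43 RPKM in siGFP cells. Their part in the AGO3 values was not tested.

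**Figure D1:**
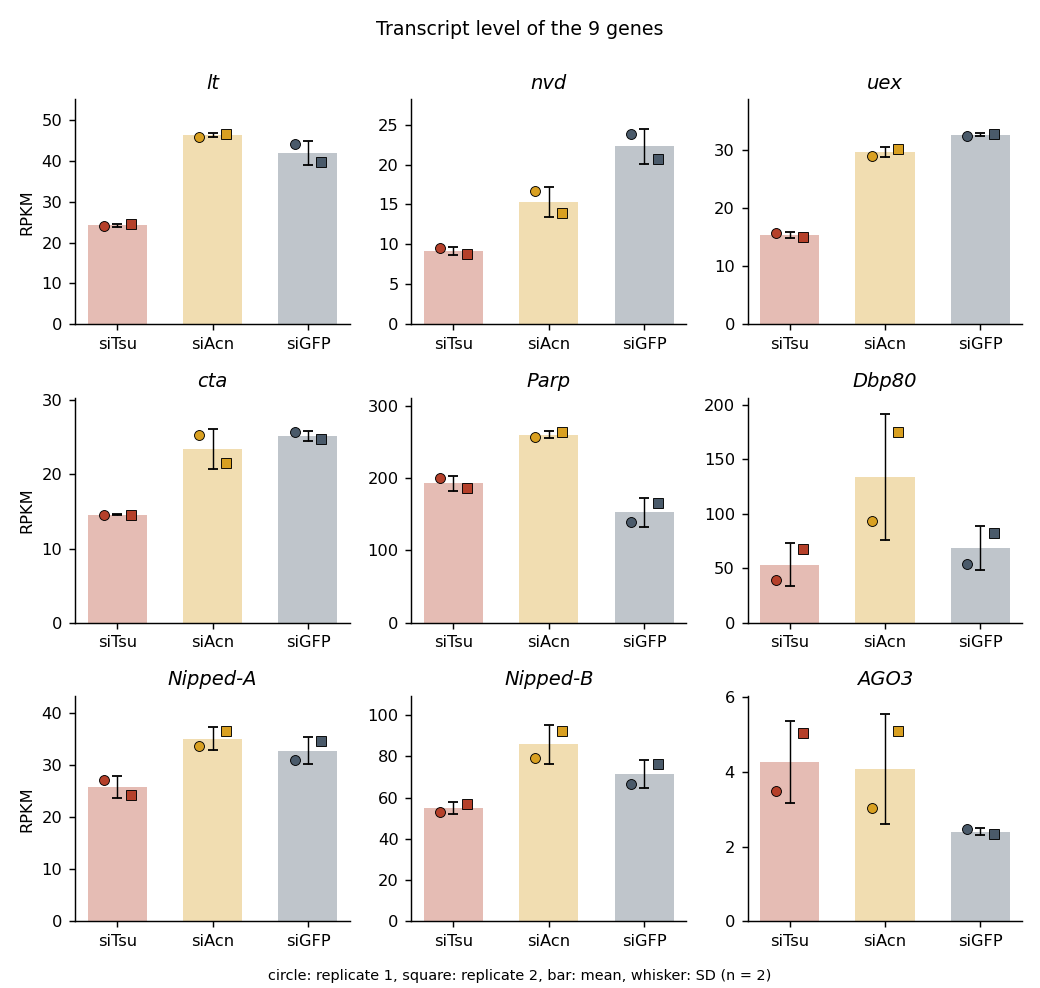
Transcript level in RPKM (linear axes from 0) of each of the 9 genes in siTsu, siAcn and siGFP cells, with both replicates as points, the mean as a bar and the SD as a whisker (n = 2). The siTsu libraries of nvd, uex, lt and cta lie below all other libraries, whereas Parp and AGO3 are lowest in siGFP and Dbp80 is widely spread in every group.

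By library order alone, 6 of the 9 genes had both siTsu libraries below both siGFP libraries, where 35.2% of all genes tested did, and 2 had both above, where 20% did. For siAcn against siGFP, nvd and uex had both libraries below, where 20.8% of all genes did, and lt, Parp, Dbp80, Nipped-B and AGO3 had both above, where 11.8% did.

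None of the 9 transcripts passed the test in siAcn against siGFP cells, although Parp and Dbp80 were called higher when the replicate number was added to the fit as a block (adjusted p = 0.016 and 0.0072, limma). limma called 0.0543% of all genes higher and 0.0136% lower in siAcn than in siGFP cells, 5 genes in all. At an unadjusted p under 0.05, 2 of the 9 were higher (Parp and Dbp80), where 3.29% of all genes were, and 1 was lower (nvd), where 4.32% were. The median log2 difference was 0.14 over the 9 genes and -0.05 over all genes tested. lt, Nipped-A and Nipped-B had log2 differences of 0.14, 0.10 and 0.26, and uex and cta of -0.13 and -0.10.

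The knockdowns were also set against each other directly. Of the 9 genes, 8 were lower in siTsu than in siAcn cells at an unadjusted p under 0.05, where 9.82% of all genes were lower and 5% higher. After adjustment 2 passed, where 0.638% of all genes were called lower and 0.367% higher. uex was lower by a log2 difference of -0.91 (standard error 0.12, adjusted p = 0.043, limma) and lt by -0.90 (standard error 0.12, adjusted p = 0.0444, limma). The differences of the other genes that did not pass were -1.29 for Dbp80, -0.68 for nvd, -0.65 for cta, -0.63 for Nipped-B and -0.43 for both Nipped-A and Parp. AGO3 was at 0.07. The median was -0.65 over the 9 genes and -0.03 over all genes tested.

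These calls rest on 2 libraries per group. With all 6 libraries 4 of the 9 genes were called in siTsu against siGFP cells, and without replicate 1 or 2 of either siTsu or siGFP none was, while all 4 stayed without a siAcn library. The fall of each of the 4 stayed between -1.29 and -0.69 on the log2 scale in these fits, nvd at -1.29 to -1.09, uex at -1.07 to -1.01, lt at -0.83 to -0.69 and cta at -0.78 to -0.73. The calls of uex and lt in siTsu against siAcn cells were lost whichever library was left out. With the replicate block, 6 of the 9 were called lower in siTsu against siGFP cells and 6 in siTsu against siAcn cells.

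The 9 genes were set beside 3 lists of other genes defined by listed position and intron length. The 9 themselves were taken by name, and 8 of them meet the position rule of the first list. Of 168 other genes with an intron on a heterochromatic arm or within 1 Mb of the centromere-proximal end of an arm, 146 were tested and 11 (7.53%) were lower in siTsu than in siGFP cells, with none higher and a median log2 difference of -0.17. The 4 with the largest falls were CG31522 (28.97 RPKM on average in siTsu cells, against 96.7 RPKM in siGFP cells), Stlk (14.9 RPKM against 46.3 RPKM), l(1)G0196 (12.0 RPKM against 31.0 RPKM) and CG17883 (39.1 RPKM against 95.1 RPKM). The adjusted p-values from limma were 0.0191 for CG31522, 0.00829 for Stlk, 0.0229 for l(1)G0196 and 0.0151 for CG17883. Of these, CG31522, Stlk and l(1)G0196 have listed introns of up to 14742, 13376 and 5761 nt, whereas the longest of CG17883 is 142 nt.

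In siTsu against siAcn cells the same list had 4 genes lower and none higher. They were MFS17 (2.78 RPKM on average in siTsu cells, against 11.5 RPKM in siAcn cells), Stlk, CG17883 and rl (rolled, the ERK MAP kinase, at 19.1 RPKM in siTsu cells against 39.0 RPKM in siAcn cells). MFS17 and rl lie on the arm 2RHet with longest listed introns of 31122 and 25475 nt. In siAcn against siGFP cells none of the 146 was called, although 7 stood higher and 8 stood lower at p under 0.05 before adjustment.

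Among 763 other genes with an intron over 10 kb, 602 were tested and 41 (6.81%) were lower and 18 (2.99%) higher in siTsu than in siGFP cells, with a median log2 difference of -0.15. Chromosome 4 is heterochromatin-like along its length. Among 63 listed genes there, 53 were tested and 13 (24.5%) were lower, none higher, with a median of -0.24. Genes of chromosome 4 were not removed from the list with an intron over 10 kb, so a gene could be in both. The 9 genes, with 4 lower and a median of -0.37, stood further down than each list, but they were not set against them by a test. Members and lists were chosen with earlier results of these data known, so this order is a description only.

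The lengths of the longest introns overlapped between the 4 genes that fell and the other 5, and no test of intron length was run. The longest listed intron, in the dm3 coordinates of the authors' table, measured 54009 nt in Parp (3RHet, 1964714 to 2018722), 40182 nt in AGO3 (3L, 23642438 to 23682619) and 39662 nt in Dbp80 (3LHet, 2504039 to 2543700), and none of these 3 genes fell past the test. It measured 34862 nt in nvd (3L, 24359128 to 24393989), 16890 nt in uex (2RHet, 3137454 to 3154343), 11078 nt in lt (2L, 22820463 to 22831540) and 8230 nt in cta (2L, 22875291 to 22883520), the 4 that fell. Nipped-A and Nipped-B, which missed the test, had longest introns of 25887 nt (2R, 1099897 to 1125783) and 10622 nt (2R, 588732 to 599353). Each listed interval reaches 35 nt into the exon on either side, so the introns themselves are 70 nt shorter.

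The annotation inside the genes differs. In the BDGP6 annotation 106 transposable elements lie within AGO3, 55 within Nipped-A and 41 within Nipped-B, against 4 each within nvd and Parp (named Parp1 there), 3 within Dbp80, 2 within uex and none within lt or cta. No protein-coding gene lies inside any of the 9. Of the 115 listed introns, 102 match an annotated intron of the same gene by length. The longest introns of lt, nvd, uex, cta, Nipped-B and AGO3 are matched and separate coding exons, as intron 1 of cta, intron 3 of nvd and intron 7 of AGO3, while those of Parp, Dbp80 and Nipped-A have no match of that length.

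Reads within large introns were then examined, since polyA-selected RNA with reads there can come from unspliced or partly spliced transcripts. For each gene, the listed introns over 2 kb that do not overlap one another were pooled into 1 level in RPKM (the large-intron level), and that level over the transcript level of the same library gave the large-intron index, in percent. Between 118 and 2172 reads per library stood behind these values, fewest for uex and most for AGO3. Over the 1529 genes tested, limma called 1.5% higher and 9.74% lower in the large-intron level of siTsu against siGFP cells, 0.262% higher and 0% lower in siAcn against siGFP cells, and 0.262% higher and 1.37% lower in siTsu against siAcn cells. None of the 9 genes was called in any of the 3 comparisons. At an unadjusted p under 0.05, Nipped-B alone of the 9 was higher in siTsu than in siGFP cells and none was lower, where 6.21% of all genes were higher and 27.4% lower. None of the 9 passed that threshold in siAcn against siGFP cells, where 5.76% of all genes were higher and 8.04% lower. In siTsu against siAcn cells cta and Nipped-B were higher and AGO3 lower, where 3.47% of all genes were higher and 17.7% lower.

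The large-intron level in siTsu cells was near or above the control in lt, nvd, cta, Parp, Nipped-A and Nipped-B and below it in uex, Dbp80 and AGO3, in none past the test. The median log2 difference of the large-intron level was 0.12 over the 9 genes, against -0.42 over all 1529 genes, and for siAcn cells it was 0.03 against -0.11. On the log2(RPKM + 0.05) scale the siTsu differences were 0.67 for Nipped-B, 0.49 for Nipped-A, 0.34 for nvd, 0.21 for cta, 0.12 for Parp, 0.04 for lt, -0.26 for AGO3, -0.47 for uex and -0.60 for Dbp80. When each library was centred on its median, the difference of AGO3 turned to 0.12.

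**Figure D2:**
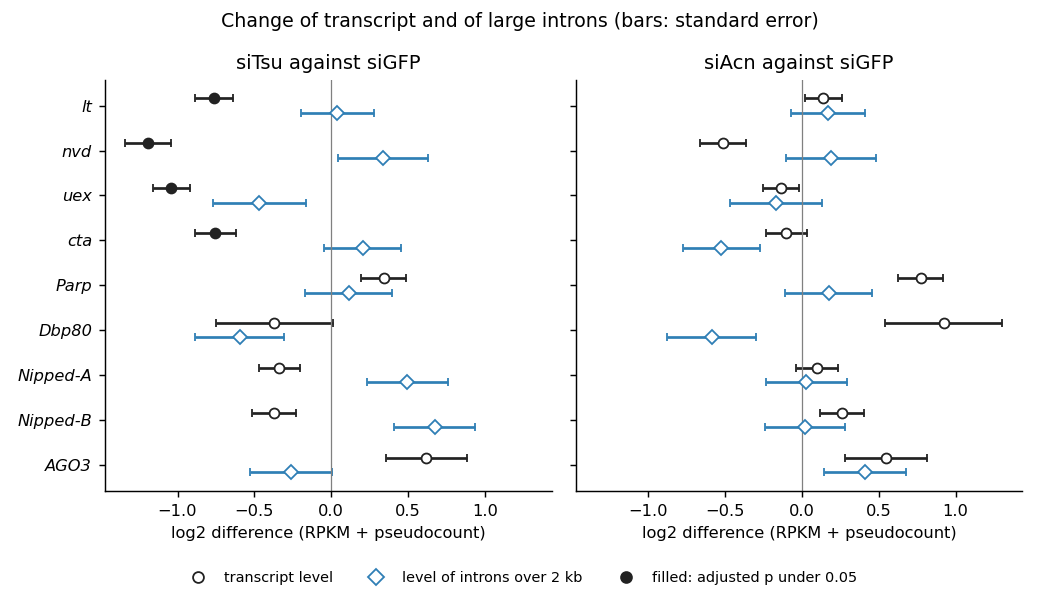
Log2 difference (x axis) of the transcript level (circles, RPKM + 1) and of the large-intron level (diamonds, RPKM + 0.05) of each gene (y axis), for siTsu against siGFP on the left and siAcn against siGFP on the right, with standard errors as bars and filled symbols where the adjusted p was under 0.05. Only the transcripts of lt, nvd, uex and cta in siTsu cells are filled, and in that panel the diamonds of 6 genes lie to the right of their circles (all but Parp, Dbp80 and AGO3).

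The large-intron index passed the test for 1 gene, nvd, in siTsu against siGFP cells, where 0.785% of the 1529 genes were called higher and 0.85% lower. In nvd the index was 2.80% and 3.80% in siTsu libraries, 1.59% and 1.89% in siAcn libraries and 0.84% and 1.23% in siGFP libraries. The groups did not overlap and stood in the reverse order of the transcript, which is the divisor of the index. The log2 difference of nvd was 1.61 (standard error 0.29, adjusted p = 0.0487, limma) in siTsu cells and 0.73 (standard error 0.29, adjusted p = 0.40, limma) in siAcn cells. Its large-intron level itself was 0.27 and 0.33 RPKM in siTsu libraries, 0.27 and 0.26 RPKM in siAcn libraries and 0.20 and 0.26 RPKM in siGFP libraries (log2 difference 0.34 for siTsu against siGFP, not called), while the transcript under it fell. The call of nvd was lost whichever library was left out, and the log2 difference lay between 1.36 and 1.86.

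The indices of 4 further genes were higher in siTsu than in siGFP cells at an unadjusted p under 0.05 but not after adjustment. At that threshold 7.13% of all genes were higher and 16.5% lower. In cta, whose pooled introns are the single 8230-nt first intron, the index was 49.4% and 38.3% in siTsu libraries, 17.5% and 14.9% in siAcn libraries and 22.5% and 21% in siGFP libraries, a log2 difference of 1.0 for siTsu against siGFP (standard error 0.24, adjusted p = 0.087, limma). This intron held far more RNA relative to its transcript than the large introns of the other genes except AGO3. In Nipped-B the index was 1.76% and 1.5% in siTsu libraries, 0.78% and 0.53% in siAcn libraries and 0.76% and 0.76% in siGFP libraries (log2 difference 1.05, standard error 0.29, adjusted p = 0.10, limma). In Nipped-A it was 2.13% and 2.37% in siTsu libraries, 1.28% and 1.04% in siAcn libraries and 1.36% and 1.08% in siGFP libraries (log2 difference 0.84, standard error 0.26, adjusted p = 0.12, limma).

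In lt, the index was 4.55% and 5.08% in siTsu libraries, 2.88% and 2.67% in siAcn libraries and 2.35% and 3.12% in siGFP libraries (log2 difference 0.83, standard error 0.25, adjusted p = 0.12, limma). In all 4 genes the siTsu libraries lay above the other 4 libraries, which overlapped one another in lt, Nipped-A and Nipped-B. How often the index took this order over all genes tested was not counted. In uex the index was 2.60% and 1.71% in siTsu libraries, 1.5% and 1.28% in siAcn libraries and 1.46% and 1.41% in siGFP libraries, with an adjusted p of 0.23 from limma for siTsu against siGFP.

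In the other 3 genes the mean index was lower in siTsu than in siGFP cells, in none past adjustment. The AGO3 index was 11.6% and 7.61% in siTsu libraries, 22.2% and 12.7% in siAcn libraries and 17.3% and 23.4% in siGFP libraries, a log2 difference of -1.06 for siTsu against siGFP (standard error 0.35, unadjusted p = 0.019, adjusted p = 0.14, limma). In Parp it was 0.122% and 0.119% in siTsu libraries, 0.097% and 0.091% in siAcn libraries and 0.145% and 0.133% in siGFP libraries. In Dbp80 it was 0.383% and 0.216% in siTsu libraries, 0.169% and 0.081% in siAcn libraries and 0.493% and 0.283% in siGFP libraries. For Parp and Dbp80, whose transcripts were highest in siAcn cells, the siAcn index was lowest. The transcript level is the divisor of the index, so a higher transcript by itself lowers the index.

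**Figure D3:**
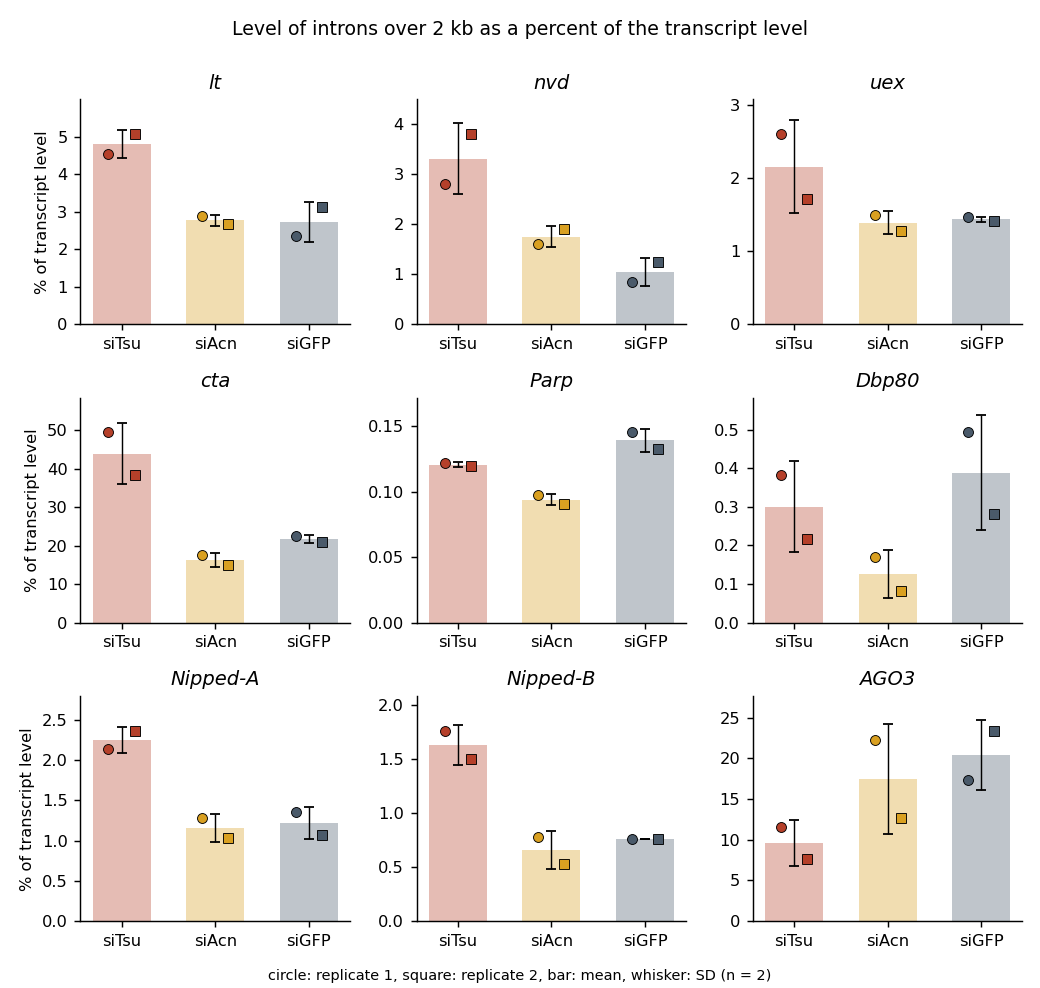
Large-intron index, the pooled RPKM of introns over 2 kb as a percent of the transcript RPKM (linear axes from 0), of each gene in siTsu, siAcn and siGFP cells, with both replicates as points, the mean as a bar and the SD as a whisker (n = 2). Both siTsu libraries lie above all others in lt, nvd, uex, cta, Nipped-A and Nipped-B, and below both siGFP libraries in AGO3. The share of all genes tested with such an order of the index was not counted.

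No gene of the 9 passed the index test in siAcn against siGFP or siTsu against siAcn cells, where limma called 0% of all genes in either direction. At an unadjusted p under 0.05, 5.1% of all genes were higher and 6.54% lower in siAcn than in siGFP cells, among them nvd (higher) and Dbp80 (lower). In siTsu against siAcn cells 7.46% were higher and 10.1% lower, and 6 of the 9 genes (nvd, lt, cta, Dbp80, Nipped-A and Nipped-B) were among the higher ones. The median log2 difference of the index was 0.83 over the 9 genes and -0.23 over all genes for siTsu against siGFP, -0.24 and -0.13 for siAcn against siGFP, and 0.88 and -0.12 for siTsu against siAcn.

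Beside the other lists, the index was higher in siTsu than in siGFP cells for 3 and lower for none of the 64 other heterochromatic genes that could be tested (median -0.02). It was higher for 3 and lower for 5 of 506 other genes with an intron over 10 kb (median -0.20). None of 31 genes of chromosome 4 was called, 11 of them being higher and 1 being lower at p under 0.05 before adjustment (median 0.32).

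The large introns were then described singly. In nvd, which has 3 introns over 2 kb, the mean index of the 34862-nt intron 3 in siTsu cells was 4.11 times that in siGFP cells, on 476 reads in siTsu and 619 reads in siGFP libraries, while the 23196-nt and 17106-nt introns before it had ratios of 1.54 and 1.80. This intron 3 was at 0.42 and 0.60 RPKM in siTsu libraries, 0.35 and 0.40 RPKM in siAcn libraries and 0.22 and 0.37 RPKM in siGFP libraries. It is the intron of nvd that holds its 4 annotated transposable elements, which cover 12155 nt, and it took 66.6% of the reads in the large introns of nvd. How many of its reads arose from copies elsewhere was not tested.

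In Nipped-B, all 5 large introns had a higher mean RPKM and a higher mean index in siTsu than in siGFP cells, some on few reads. The 4368-nt intron had 2 and 1 reads in siTsu and 2 and 2 in siGFP libraries, and the 2006-nt intron 8 and 1 against 6 and 3. The 7064-nt intron overlapped, at 0.45 and 0.43 RPKM in siTsu and 0.34 and 0.50 RPKM in siGFP libraries. The 2962-nt intron was at 0.83 and 1.29 RPKM in siTsu and 0.45 and 0.58 RPKM in siGFP libraries. The 10622-nt intron, with 71.4% of the reads, was at 1.78 and 1.52 RPKM in siTsu libraries, 1.25 and 0.87 RPKM in siAcn libraries and 0.91 and 0.96 RPKM in siGFP libraries. In Nipped-A, the 24530-nt listed intron with the most reads (2R, 1104906 to 1129435) was at 0.95 and 0.97 RPKM in siTsu libraries, 0.76 and 0.67 RPKM in siAcn libraries and 0.73 and 0.61 RPKM in siGFP libraries. In the 10622-nt intron of Nipped-B and the 24530-nt intron of Nipped-A, the siTsu libraries lay above the other 4. The 24530-nt interval shares reads with other listed forms. The 6293-nt intron of Nipped-A, which overlaps no other form, was at 0.32 and 0.12 RPKM in siTsu, 0.14 and 0.02 RPKM in siAcn and 0.13 and 0.29 RPKM in siGFP libraries, so siTsu and siGFP overlapped.

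In uex, all 4 large introns had a lower mean RPKM in siTsu than in siGFP cells, with a median ratio of 0.57, and all 4 had a higher mean index. Its 16890-nt intron was at 0.55 and 0.30 RPKM in siTsu libraries, 0.53 and 0.34 RPKM in siAcn libraries and 0.47 and 0.44 RPKM in siGFP libraries, so these groups overlapped. The single large intron of lt, at 1.09 and 1.24 RPKM in siTsu libraries, 1.32 and 1.24 RPKM in siAcn libraries and 1.03 and 1.24 RPKM in siGFP libraries, overlapped across the groups.

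In Parp, the 54009-nt intron was at 0.26 and 0.24 RPKM in siTsu libraries, 0.30 and 0.31 RPKM in siAcn libraries and 0.23 and 0.24 RPKM in siGFP libraries. This is 0.128%, 0.116% and 0.155% of the transcript level on average in siTsu, siAcn and siGFP cells. In Dbp80, the 30701-nt intron with the most reads (3LHet, 2473272 to 2503972) was at 0.31 and 0.25 RPKM in siTsu libraries, 0.26 and 0.24 RPKM in siAcn libraries and 0.58 and 0.49 RPKM in siGFP libraries. Its 39662-nt intron was at 0.05 and 0.12 RPKM in siTsu libraries, 0.09 and 0.07 RPKM in siAcn libraries and 0.08 and 0.10 RPKM in siGFP libraries. Of the 2 Dbp80 introns, the first was lower in both knockdowns than in either control library and the second was not. Both overlap other listed forms. The first holds the annotated noncoding RNA gene lncRNA:CR46250 and 1 transposable element, neither on the strand of Dbp80.

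In AGO3, all 5 large introns that overlap no other listed form had a lower mean index in siTsu than in siGFP cells, with ratios between 0.34 and 0.72, and 3 of the 5 had a lower mean RPKM. The first intron, listed in overlapping forms and pooled by its 12219-nt form, went the other way, with an index ratio of 1.34. That form was at 0.19 and 0.17 RPKM in siTsu, 0.09 and 0.17 RPKM in siAcn and 0.08 and 0.08 RPKM in siGFP libraries. The 35179-nt intron 4 (3L, 23576430 to 23611608) took 66.5% of the reads summed over all listed introns of AGO3 over 2 kb. That sum counts reads in the overlapping forms of the first intron more than once. It was at 0.92 and 0.73 RPKM in siTsu libraries, 2.02 and 1.68 RPKM in siAcn libraries and 1.07 and 1.42 RPKM in siGFP libraries, which is 20.4%, 49.8% and 52.3% of the transcript level on average in siTsu, siAcn and siGFP cells. By RPKM the groups did not overlap, with siTsu lowest and siAcn highest, whereas by index siAcn (66.8% and 32.8%) overlapped siGFP (43.6% and 61.0%) and siTsu (26.5% and 14.4%) lay below both. The longest intron of AGO3, the 40182-nt intron 7, was at 0.31 and 0.41 RPKM in siTsu libraries, 0.28 and 0.38 RPKM in siAcn libraries and 0.26 and 0.31 RPKM in siGFP libraries. These introns hold 30 and 35 of the annotated transposable elements, and how many reads in them arose from copies elsewhere was not tested.

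**Figure D4:**
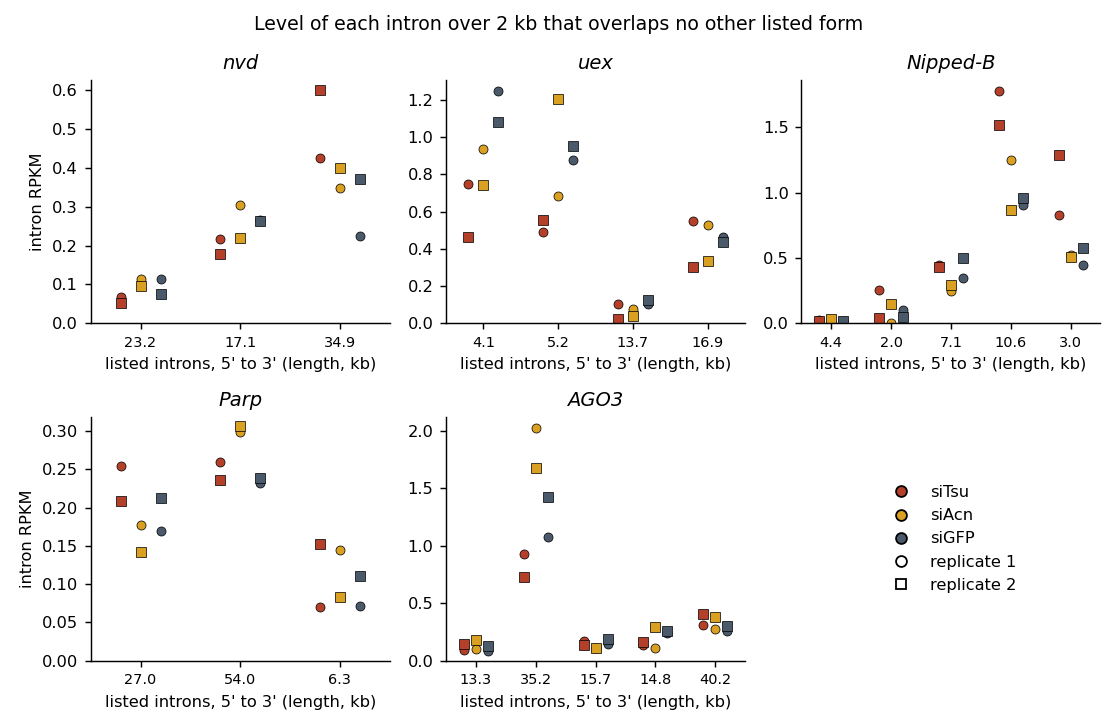
RPKM (linear axes from 0) of each intron over 2 kb that overlaps no other listed form, in order from the 5′ end with its length in kb on the x axis, for the 5 genes with at least 3 such introns, in siTsu, siAcn and siGFP cells (circles, replicate 1, and squares, replicate 2). Intron 3 of nvd and the 10.6-kb intron of Nipped-B are highest in siTsu, all 4 introns of uex have lower means in siTsu than in siGFP, and the 35.2-kb intron of AGO3 is lowest in siTsu and stands above all its other introns.

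Over the 24 large introns of the 9 genes that overlap no other listed form, 14 had a higher and 10 a lower mean RPKM in siTsu than in siGFP cells, with a median ratio of 1.04, and 16 had a higher mean index, with ratios between 0.34 and 4.11. In siAcn cells 12 were higher and 12 lower in RPKM, with a median ratio of 0.996, and 7 had a higher index. The matching shares over all single large introns were not counted. By gene, the median log2 difference over all 1529 genes tested was -0.42 for the large-intron level and -0.23 for the index in siTsu against siGFP cells. In siAcn against siGFP cells it was -0.11 and -0.13. Introns of 1 gene share its transcript and its libraries and are not independent.

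Single introns were tested by the intron retention index, the intron RPKM over the transcript RPKM. The test took introns of genes above 10 RPKM in siGFP cells that exceeded 10% of the transcript in at least 1 library, 2848 introns in all, of which 4 belong to the 9 genes. limma called 2.56% of the 2848 higher and 0.211% lower in siTsu than in siGFP cells, and 1.33% higher and 0% lower in siAcn than in siGFP cells. None of the 4 was called. The last listed intron of lt and the 118-nt intron of uex exceeded 10% in knockdown libraries alone, so that they entered the test through the groups where they were high, and their values are given as a description.

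The 4 were the first intron of cta described above, which had a log2 difference of 0.99 (standard error 0.22, adjusted p = 0.07, limma) in siTsu against siGFP cells, and 3 short introns. The 129-nt last listed intron of lt (2L, 22832711 to 22832839) had an index of 16.4% and 8.30% in siTsu libraries, 15.5% and 23.8% in siAcn libraries and 6.16% and 8.41% in siGFP libraries. Both siAcn libraries were above both siGFP libraries. In uex, a 118-nt coding intron (2RHet, 3169350 to 3169467) was at 10.3% and 9.86% in siTsu libraries, 4.72% and 4.22% in siAcn libraries and 2.74% and 5.14% in siGFP libraries. A 163-nt intron in the 5′ UTR of uex (2RHet, 3179459 to 3179621) was at 9.90% and 17.8% in siTsu libraries, 5.68% and 3.05% in siAcn libraries and 8.56% and 13.0% in siGFP libraries.

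The read counts behind the short introns are small. The lt intron rested on 70 reads over all 6 libraries and the uex introns on 19 and 50. Across the 70 listed introns of the 9 genes of at most 2 kb, there were 479 reads in siTsu libraries, 555 in siAcn libraries and 1000 in siGFP libraries, 21 introns had no read in any library, and a change in most of them was not detectable at this depth. The 2 short introns of nvd had no read at all, and the 4 of cta had 1 read among them.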

How the data were processed

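The authors deposited 2 tables of RPKM, of 8335 genes and of 60779 introns placed on dm3, from reads with a unique alignment. Bowtie and GSNAP are named, with no version, in the submitters' processing notes. Libraries were strand-specific. All columns of library values were used. Members and lists were chosen with earlier results of these data known.

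Multiplied by interval length, the intron RPKM of a library fell on whole multiples (within 0.1 read) of 1 step, which gave reads and library scales. Of 49398 introns of annotated genes, 49218 (99.6%) match a BDGP6 intron length once 70 nt are taken off. That annotation gave lengths, intron numbers and contents only, and no coordinates were converted.

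In R 4.3.3, limma 3.58.1 (eBayes with a trend after lmFit, calls at a Benjamini-Hochberg adjusted p under 0.05) was fitted to the 6 libraries of 3 groups at once, on log2(RPKM + 1) for genes averaging 1 RPKM or more, log2 of the retention index with 0.1 RPKM added to the intron, and log2 of the pooled large introns and of their ratio to the transcript with 0.05 RPKM added (pooled mean of 0.05 RPKM or more). Overlapping large introns were reduced to a non-overlapping set, longest first. Other steps used Python 3.11.15, pandas 2.3.3 and numpy 2.4.6. The fits were tested on simulated data.

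Named items were the 9 genes, tsu and Acn, each gene's longest intron, its intron over 2 kb with most reads, every intron past the index test, and up to 4 other heterochromatic genes per comparison with the largest called change. The 4 member introns in the index test and the marker genes named were added after values were seen. Marker lists covered OSC and follicle cells, germline, hemocytes, muscle and fat body. The muscle list was at 7.60 to 9.12 RPKM in every library, and no fat body marker was listed. Counts of reads were used to describe depth and not in a count model. Alternatives varied pseudocounts, filters, intron sets, scaling, groups in the fit, the trend, a replicate block and each library left out.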

Additional observations from a re-analysis of the deposited data

Results flagged for a closer look

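The effects of the 2 knockdowns differed for 2 of the 9 transcripts when siTsu and siAcn cells were compared directly. The log2 difference was -0.91 for uex (adjusted p = 0.043, limma), with 15.7 and 15 RPKM in siTsu libraries against 29.1 and 30.3 RPKM in siAcn libraries. It was -0.90 for lt (adjusted p = 0.0444, limma), with 24.0 and 24.5 RPKM in siTsu libraries against 45.9 and 46.6 RPKM in siAcn libraries. Both siTsu libraries were lower than both siAcn libraries in each gene, and the cause was not tested. Groups of 2 libraries are too small to test whether 1 library stands apart.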

How the results depend on the processing

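The labels do not say that replicate numbers mark a shared batch. Deviations of same-numbered libraries from their group means correlated at 0.44 to 0.63 across genes for transcripts and at 0.11 to 0.23 for the large-intron index. With the replicate block, 6 of the 9 transcripts were called in siTsu against siGFP cells (Dbp80 at an adjusted p of 0.048 and Nipped-B at 0.033, beside the 4), 2 in siAcn against siGFP (Dbp80 and Parp, both higher) and 6 in siTsu against siAcn. Over all genes the block called 1859, 297 and 664 transcripts in these comparisons, 322, 32 and 97 large-intron levels, and 49 large-intron indices in siTsu against siGFP cells.

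Of the 9 transcripts, 4 were called in siTsu against siGFP cells under every alternative other than the block, the loss of a library and no filter (3, without cta), and 0 to 4 when 1 library was left out. In siTsu against siAcn cells the 2 calls became 1 at a mean of at least 10 RPKM, 0 with only the 2 groups in the fit and 0 to 0 when 1 library was left out. The 1 called large-intron index (nvd, siTsu against siGFP) became 0 with all listed introns, no filter, a pseudocount of 0.01, only the 2 groups, no trend or any library left out (0 to 0), 2 with introns over 10 kb (adding Nipped-B) and 2 with centred libraries (adding cta). In siTsu against siAcn cells 1 index passed with introns over 10 kb (Nipped-B, adjusted p = 0.035), 1 at a pseudocount of 0.2 and 1 with centred libraries (cta both times). The first intron of cta passed the retention index test, as 1 call in siTsu against siGFP, for genes above 20 RPKM (adjusted p = 0.032) and at a pseudocount of 1 (adjusted p = 0.047), and as 1 call in siTsu against siAcn under both of these and with centred libraries. The cause was not tested.

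Counts over all features moved more. Transcripts called in siTsu against siGFP numbered 271, and 129 at a mean of at least 10 RPKM, with 6 to 369 when 1 library was left out. In siAcn against siGFP the 5 became 2 at 10 RPKM, 3 with 2 groups, 10 with no trend and 0 to 1 without a library. In siTsu against siAcn the 74 became 18 at 10 RPKM, 40 with no filter, 41 at a pseudocount of 0.1, 5 with 2 groups and 1 to 9 without a library. The 79 introns called in siTsu against siGFP became 122 for genes above 20 RPKM, 4 for introns overlapping no other, 0 without the 10% filter, 151 at a pseudocount of 1, 38 with 2 groups, 19 with no trend and 0 to 38 without a library. The 38 called in siAcn against siGFP became 94, 2, 0, 61, 1 and 0 in the same order, and 0 to 9 without a library. Large-intron levels called in siTsu against siGFP (172) became 0 with all listed introns, 95 with introns over 10 kb, 38 with no filter, 45 with centred libraries and 1 to 201 without a library. Those in siAcn against siGFP (4) became 0 with all listed introns, 2 with introns over 10 kb, 0 with no filter, 13 at a pseudocount of 0.2, 0 with 2 groups, 1 with no trend and 0 to 0 without a library. Those in siTsu against siAcn (25) became 0 with all listed introns, 16 with introns over 10 kb, 0 with no filter, 8 with centred libraries, 0 with 2 groups and 0 to 34 without a library. Large-intron indices called in siTsu against siGFP (25) became 0 with all listed introns, 67 with introns over 10 kb, 16 and 86 at pseudocounts of 0.01 and 0.2, 0 with 2 groups and 0 to 12 without a library. Those in siAcn against siGFP (0) became 3 with introns over 10 kb and 5 at a pseudocount of 0.2, and those in siTsu against siAcn (0) became 26 with introns over 10 kb, 16 at a pseudocount of 0.2, 18 with centred libraries and 0 to 2 without a library.

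No called change of a gene turned round. The 86 uncalled values were refitted under 744 settings other than a lost library, with 12 changes of sign, and under 516 with a lost library, with 23. With centred libraries the log2 differences became 0.12 for AGO3 and, in siTsu against siAcn, 0.28 for Dbp80, 0.23 for Parp and 0.16 for lt in the large-intron level, and in the index 0.011 for Dbp80 and 0.0013 for Parp in siTsu against siGFP and 0.061 for Nipped-A and 0.10 for uex in siAcn against siGFP. With all listed introns lt became -0.075 in the large-intron level (siTsu against siGFP) and -0.057 in the index (siAcn against siGFP). At a pseudocount of 0.2 the index became 0.0054 for Dbp80 (siTsu against siGFP) and 0.0098 for uex (siAcn against siGFP). When 1 library was left out, the transcript differences ranged over -0.75 to 0.012 for Dbp80 (siTsu against siGFP), -0.22 to 0.0091 for cta (siAcn against siGFP) and -0.23 to 0.37 for AGO3 (siTsu against siAcn). Those of the retention index ranged over -0.049 to 0.76 for the 163-nt intron of uex (siTsu against siGFP) and -0.18 to 0.66 for its 118-nt intron (siAcn against siGFP). The large-intron level ranged over -0.085 to 0.17 for lt (siTsu against siGFP), -0.053 to 0.11 for Nipped-A and -0.13 to 0.17 for Nipped-B (siAcn against siGFP) and -0.067 to 0.049 for Dbp80 (siTsu against siAcn). The index ranged over -0.63 to 0.19 for Dbp80 in siTsu against siGFP, and in siAcn against siGFP over -0.69 to 0.11 for AGO3, -0.23 to 0.087 for Nipped-A, -0.50 to 0.024 for Nipped-B, -0.17 to 0.23 for lt and -0.13 to 0.075 for uex. Depth limits the short introns most, and 2 libraries per group limit every test.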
